A study of Mus musculus with 6 samples.

Results

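The 9 genes described here encode dual-specificity MAP kinase phosphatases: Dusp1, Dusp2, Dusp4, Dusp5, Dusp6, Dusp7, Dusp8, Dusp10 and Dusp16. They were taken by gene symbol, with every non-control probe that carries it, which gave 13 of 39429 probes on the array and 9 of 22565 genes tested. The genes were chosen with the differences between these same arrays known, so the knockout minus wild-type differences below are a description. No gene of the 9 is given a p-value, and counts of calls among them stand only beside the share over all genes. The samples are 3 brain samples of male Pla2g2e-/- mice and 3 of male wild-type mice, all on the C57BL/6N background and all titled as sham-operated. Pla2g2e encodes a secreted phospholipase A2, and the labels give neither the way it was deleted nor the age of the mice. Every sample also carries a treatment text about temporary blockage of a cerebral artery, so whether all 6 brains were only sham-operated is not settled by the labels. Separate animals are not stated, so p-values cover only sample-to-sample spread, possibly technical.

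MAP kinases are switched on by phosphorylation of a threonine and a nearby tyrosine, and dual-specificity phosphatases switch them off by removing both phosphates. Many of these phosphatases are themselves transcribed in response to MAP kinase signalling, which makes them a negative feedback loop, and in neurons several of them are induced within minutes to hours of synaptic activity. The family is commonly sorted by place and substrate: Dusp1, Dusp2, Dusp4 and Dusp5 act in the nucleus, Dusp6 and Dusp7 act on ERK in the cytoplasm, and Dusp8, Dusp10 and Dusp16 act mainly on the stress-activated kinases JNK and p38.

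Each gene was read through 60-base probes, which are given here with their mm9 positions from the files, because the differences below rest on them. The exon under each probe was not looked up, since no mm9 annotation was used here. Dusp4 and Dusp2, the genes whose groups did not overlap, had 1 probe each, on the plus strand at chr8:35882045-35882104 and chr2:127163930-127163989:
Dusp4: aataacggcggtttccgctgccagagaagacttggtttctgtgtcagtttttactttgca
Dusp2: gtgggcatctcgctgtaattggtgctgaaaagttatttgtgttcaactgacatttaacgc

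Dusp1, Dusp7, Dusp8 and Dusp16 had 2 probes each, and the brighter one stood for the gene. The pairs of Dusp1 and Dusp16 are shown because their probes gave different differences, and the pair of Dusp7 because its probes overlap. In Dusp7 the capitals mark the 15 bases that the probes share, at chr9:106277985-106278044 and chr9:106277943-106278000 on the plus strand. The Dusp1 probes lie on the minus strand at chr17:26642526-26642536, an interval in the files that is shorter than the probe, and at chr17:26691199-26691258. The Dusp16 probes lie on the minus strand at chr6:134665783-134665842 and chr6:134668003-134668062:
Dusp1, brighter probe: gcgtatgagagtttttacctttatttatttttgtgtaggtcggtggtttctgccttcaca
Dusp1, dimmer probe: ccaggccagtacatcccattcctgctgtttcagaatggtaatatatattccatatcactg
Dusp7, brighter probe: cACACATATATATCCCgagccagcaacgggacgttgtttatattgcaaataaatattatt
Dusp7, dimmer probe: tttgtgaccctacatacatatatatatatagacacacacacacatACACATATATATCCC
Dusp16, brighter probe: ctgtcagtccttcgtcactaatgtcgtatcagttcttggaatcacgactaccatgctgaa
Dusp16, dimmer probe: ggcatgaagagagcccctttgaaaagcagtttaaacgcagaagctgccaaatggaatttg

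The 1-colour arrays, 1 for each sample, held 43020 non-control spots, of which 82% to 85.3% were well above background. Knockout 1 and all 3 wild-type arrays shared 1 slide, and knockout 2 and 3 lay on a second slide. The arrays of the second slide had the highest shares above background, 85.3% and 84.7%. The Pla2g2e probe that was above background on all 6 arrays read between -7.88 and -7.07 in knockout and between -7.26 and -6.67 in wild type (log2 signal minus the array's 75th percentile), so its ranges overlapped. The other Pla2g2e probe, above background on 5 arrays, read between -8.44 and -8.38 in knockout and between -9.15 and -8.50 in wild type, higher in knockout. The deleted part of the gene is not given in the labels, and neither probe therefore checks the genotype. All 64 marker genes tested, for neurons, glia, vessels, brain regions, meninges, choroid plexus and blood, were well above background on all 6 arrays.

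Wild-type array 3 stood apart from the other arrays. The summed signal of 7 striatum markers, in multiples of the array's 75th percentile, was 16.3 to 18.4 in knockout and 23.2, 15.2 and 56.1 on wild-type arrays 1, 2 and 3. The 6 meninges markers summed to 6.16 to 8.98 in knockout and 8.01 to 14.2 in wild type, and the 6 choroid plexus markers to 8.02 to 14.5 in knockout and 5.09 to 24.9 in wild type, with array 3 at the top of both wild-type ranges. The 6 neuron markers summed to 168.7 to 182.9 in knockout and 161.5 to 178.9 in wild type, lowest on array 3. In the mean, all 8 striatum markers tested, 6 of 6 meninges markers and 6 of 6 choroid plexus markers were lower in knockout, and 3 of 6 neuron markers. In bulk tissue fewer cells of a type and less RNA per cell cannot be told apart. The difference of each of the 9 genes, and of several other genes named below, is also given without wild-type array 3. Counts of higher means and of separate groups over the gene lists below rest on all 6 arrays.

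In the mean, all 9 phosphatase genes read higher in knockout than in wild type, by 0.05 to 0.70 on the log2 scale, with a median of 0.30. Over all genes tested the median difference was -0.01, and 46.9% of genes had a higher mean in knockout. The 3 knockout values lay above the 3 wild-type values in 2 of the 9 genes, Dusp4 and Dusp2, and below them in 0. Of the 22322 genes with a value on every array, 19.8% had separate groups, 7.59% higher and 12.2% lower in knockout. At an adjusted p under 0.05 in limma (Benjamini-Hochberg) 0 of the 9 were called, as were 0% of all genes. At an unadjusted p under 0.05 in limma, 2 of the 9 were higher and 0 lower, beside 12.4% of all genes, 3.08% higher and 9.33% lower. That split moved with the scaling: 75.2% of such genes were lower here, 45% after quantile normalization and 24.6% after median scaling. Because the genes were chosen from this contrast, nothing is read from these shares. Without wild-type array 3, 7 of the 9 means were higher in knockout and the median difference was 0.12.

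**Figure D1:**
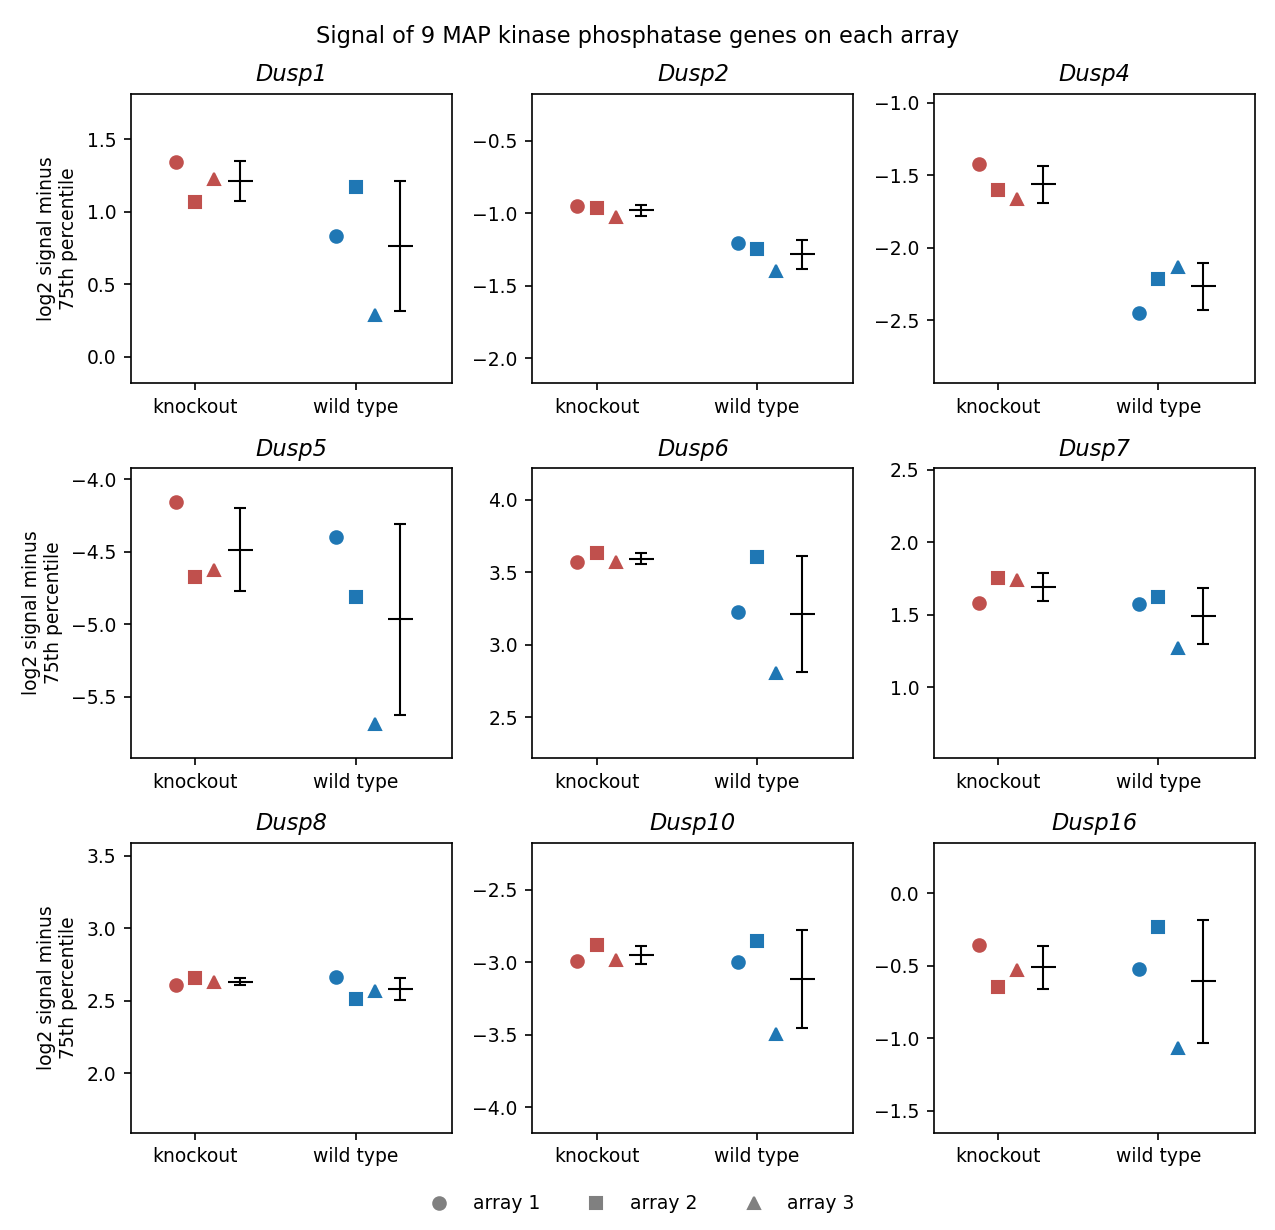
Log2 signal of the 9 phosphatase genes minus each array's 75th percentile, with the 3 knockout arrays left of the 3 wild-type arrays in each panel, symbols for the array number, and the group mean with its SD as a black bar. Every panel spans the same number of log2 units. Dusp4 and Dusp2 show separate groups, and in 7 panels wild-type array 3 (triangle) is the lowest point.

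Among the nuclear phosphatases, Dusp4, which acts on ERK and other MAP kinases, had the largest difference. It read -1.42, -1.60 and -1.66 on knockout arrays 1, 2 and 3, against -2.45, -2.21 and -2.14 on wild-type arrays 1, 2 and 3. The groups were separated by 0.47, and wild-type array 3 was the highest of the wild-type arrays, not the lowest. The means were -1.56 ± 0.13 in knockout and -2.27 ± 0.16 in wild type (SD, n = 3 each), a difference of 0.70 ± 0.11 (SE), or 1.63-fold. It was 0.84 on the slide that holds both genotypes, where knockout has 1 array, and 0.77 without wild-type array 3. Leaving out any 1 array gave 0.61 to 0.77.

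Dusp2, a nuclear phosphatase first known from activated lymphocytes, had the other pair of groups that did not overlap. It read -0.95, -0.97 and -1.02 in knockout, against -1.21, -1.25 and -1.40 in wild type. The knockout arrays lay close together, and all of them above wild-type array 1, the highest of its group. The means were -0.98 ± 0.04 in knockout and -1.28 ± 0.10 in wild type (SD, n = 3 each), a difference of 0.30 ± 0.07 (SE), or 1.23-fold. The difference was 0.34 on the shared slide and 0.25 without wild-type array 3.

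Dusp1, an immediate early gene whose product acts on p38, JNK and ERK, had a difference about as large as the SD of the wild-type arrays. It read 1.34, 1.07 and 1.23 in knockout, against 0.83, 1.17 and 0.29 in wild type. Wild-type array 2 lay inside the knockout range and array 3 far below the rest, so that the groups overlapped. The means were 1.21 ± 0.14 in knockout and 0.76 ± 0.45 in wild type (SD, n = 3 each), a difference of 0.45 ± 0.23 (SE) that was 0.58 on the shared slide and 0.21 without wild-type array 3.

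Dusp5, a nuclear phosphatase specific for ERK, had the widest spread of the 9 genes in both genotypes. It read -4.16, -4.67 and -4.63 in knockout, against -4.40, -4.81 and -5.69 in wild type. Wild-type array 1 lay above knockout arrays 2 and 3, and only array 3 lay well below the others. The means were -4.49 ± 0.29 in knockout and -4.97 ± 0.66 in wild type (SD, n = 3 each), a difference of 0.48 ± 0.34 (SE). It was 0.81 on the shared slide, where knockout 1 is the highest of all arrays, 0.12 without wild-type array 3, and 0.19 after normexp background correction in place of the deposited processed signal. The mean pixel signal of this spot was 2.58 to 5.97 times its local background, closer to background than that of Dusp4, at 19.5 to 45.2 times.

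Both cytoplasmic ERK phosphatases had overlapping groups. Dusp6, which is induced by ERK signalling and dephosphorylates ERK, read 3.57, 3.63 and 3.57 in knockout, against 3.23, 3.60 and 2.80 in wild type. Wild-type array 2 stood among the knockout arrays, array 1 below them and array 3 lowest. The means were 3.59 ± 0.04 in knockout and 3.21 ± 0.40 in wild type (SD, n = 3 each), a difference of 0.38 ± 0.20 (SE), which was 0.36 on the shared slide, 0.18 without wild-type array 3 and 0.58 without wild-type array 2.

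Dusp7, the close relative of Dusp6, read 1.58, 1.75 and 1.74 in knockout, against 1.57, 1.62 and 1.27 in wild type. Knockout 1 lay between wild-type arrays 1 and 2, so the groups overlapped. The difference was 0.20 ± 0.11 (SE), and it was 0.09 both on the shared slide and without wild-type array 3.

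The 3 phosphatases that act mainly on JNK and p38 differed least, by 0.05 to 0.17, and by -0.13 to 0.04 without wild-type array 3. Dusp8, which is abundant in brain, read 2.61, 2.65 and 2.63 in knockout, against 2.66, 2.51 and 2.57 in wild type. Wild-type array 1 was the highest and array 2 the lowest of the 6 arrays, and the difference of 0.05 ± 0.07 (SE) was within its error.

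Dusp10 read -2.99, -2.88 and -2.98 in knockout, against -3.00, -2.85 and -3.50 in wild type. Dusp16 read -0.35, -0.65 and -0.53 in knockout, against -0.52, -0.23 and -1.07 in wild type. In both genes wild-type array 2 was the highest and array 3 the lowest of the 6 arrays. The difference of 0.17 ± 0.17 (SE) in Dusp10 became -0.02 without wild-type array 3, and that of 0.10 ± 0.22 (SE) in Dusp16 became -0.13, and 0.25 on the shared slide.

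**Figure D2:**
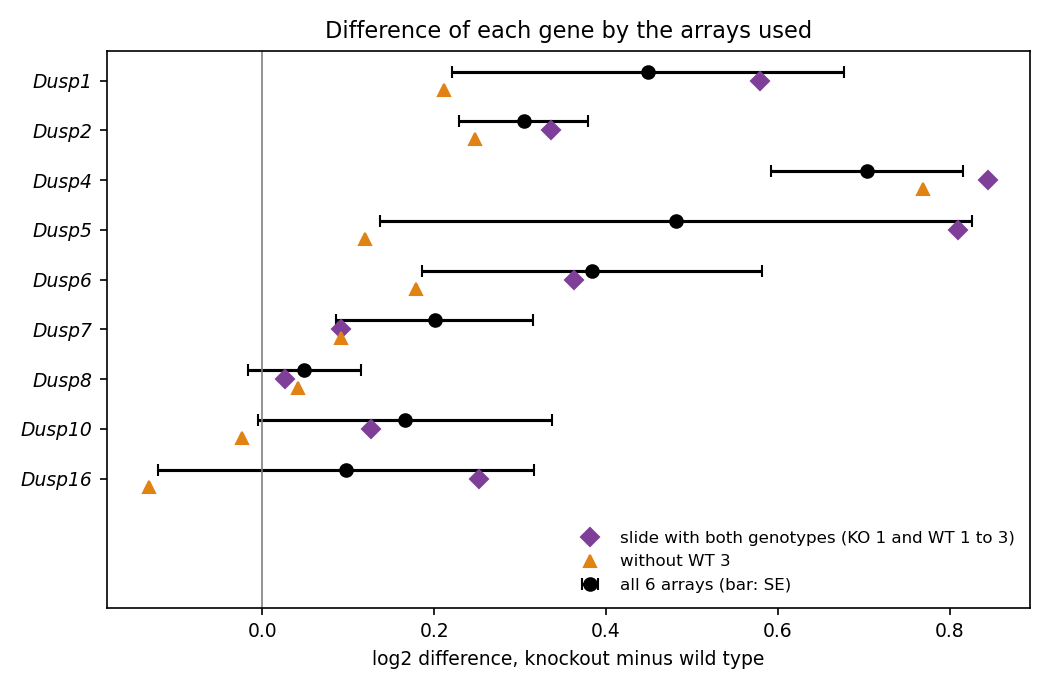
Log2 difference of each phosphatase gene, knockout minus wild type, over all 6 arrays with its SE (circles), on the slide that holds knockout 1 and the 3 wild-type arrays (diamonds), and without wild-type array 3 (triangles). Dusp4 lies between 0.70 and 0.84 under all 3, whereas Dusp10 and Dusp16 fall below 0 without wild-type array 3.

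Where a gene had 2 probes, the second one did not always follow the first. The dimmer Dusp1 probe lies 48662 bases from the brighter one, while the Dusp1 gene spans 2882 bases in GRCm38.p6. It read -6.95, -7.18 and -7.27 in knockout, against -6.95, -7.05 and -7.08 in wild type, a difference of -0.10 where the brighter probe gave 0.45. Its mean pixel signal was 1.55 to 1.89 times the local background, against 107 to 236 times for the brighter probe.

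The dimmer Dusp16 probe, 2160 bases from the other, read -6.46, -6.28 and -6.34 in knockout, against -6.46, -6.70 and -7.22 in wild type, and differed by 0.43. Wild-type array 3 was the lowest of the 6 arrays, and the probe too was close to background, at 1.53 to 2.40 times. The difference of this probe was not taken without that array. In Dusp7 and Dusp8 both probes were bright and gave like differences, 0.20 and 0.19 for Dusp7 and 0.05 and 0.00 for Dusp8. The second Dusp7 probe had its knockout 2 spot marked as an outlier, so its 0.19 rests on 2 knockout arrays.

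By array, the median of the 9 genes relative to their wild-type means was 0.34, 0.29 and 0.26 on knockout arrays 1, 2 and 3, and 0.08, 0.15 and -0.38 on wild-type arrays 1, 2 and 3. The knockout arrays were therefore close to each other and above each wild-type array, while the distance from wild-type array 3 to wild-type array 2 was larger than that from wild-type array 2 to any knockout array. Of the 13 marker lists, 5 were highest on wild-type array 3, where the phosphatase genes were lowest: striatum, meninges, choroid plexus, thalamus and blood leukocytes. Another 3 were lowest on that array: neurons, neocortex and hippocampus. The 6 neocortex markers summed to 31.9 to 34.4 in knockout and 30.0 to 34.7 in wild type. The 4 hippocampus markers summed to 0.0687 to 0.0963 in knockout and 0.0671 to 0.0793 in wild type. The 4 thalamus markers summed to 1.35 to 1.66 in knockout and 1.42 to 2.34 in wild type, and the 5 leukocyte markers to 2.3 to 4.11 in knockout and 1.65 to 9.07 in wild type. The 3 red blood cell markers summed to 0.949, 15.9 and 1.86 on the knockout arrays, with all wild-type arrays inside that range and array 3 at 3.69. The part of these markers in the result was not tested.

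**Figure D3:**
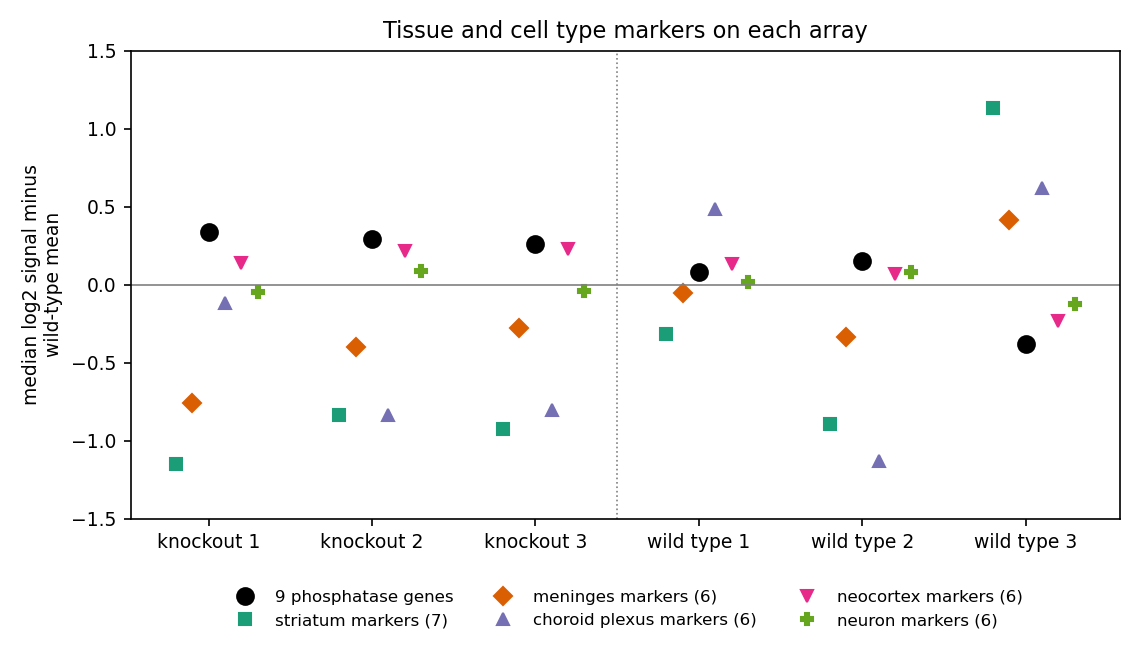
Median log2 signal relative to the wild-type mean on each array, for the 9 phosphatase genes (black circles) and for markers of striatum, meninges, choroid plexus, neocortex and neurons, with the number of genes in brackets. Wild-type array 3 is highest in striatum markers, at 1.13, and lowest in the phosphatase genes, at -0.38.

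The rest of the pathway was followed in 4 lists, which were written with earlier results of these data known and hold 122 genes tested. Of these, 0 had an adjusted p under 0.05 in limma, adjusted over all genes. Without adjustment, 14 genes were higher and 1 lower in knockout at a p under 0.05, where 3.08% of all genes were higher and 9.33% lower, a split of all genes that turned with median scaling. Separate groups were found in 7.59% of all genes as higher and in 12.2% as lower, which are the shares to set beside the counts of each list. The kinases and their scaffolds, from Ras and Raf to ERK, JNK and p38, showed little difference, with a median of 0.02 over 50 genes, 29 of them higher. Among them Mapk3, which encodes the Dusp6 substrate ERK1, read 2.21 ± 0.09 in knockout and 2.45 ± 0.41 in wild type (SD, n = 3 each). It was chosen for that role after its values were seen, its groups overlapped, and the difference of -0.23 ± 0.20 (SE) was -0.01 without wild-type array 3.

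The list of other MAP kinase phosphatases also holds relatives that do not dephosphorylate MAP kinases, such as Styx. Its genes had a median difference of 0.02 over 25 genes, 13 of them higher. They include Dusp9, the remaining typical MAP kinase phosphatase, at -5.33 ± 0.15 in knockout and -5.45 ± 0.34 in wild type, and Ptpn5, the striatum-enriched tyrosine phosphatase of ERK and p38, at 3.77 ± 0.10 in knockout and 3.64 ± 0.13 in wild type (SD, n = 3 each). Dusp9 and Ptpn5 were picked for their roles after their values were seen. On this list 1 higher and 1 lower gene had separate groups, beside 7.59% and 12.2% of all genes. The lower one, Styx, a catalytically inactive relative of the phosphatases, differed by -0.06 ± 0.06 (SE), and by 0.08 after median scaling, which moved the median of all genes to 0.13.

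Feedback inhibitors of ERK signalling outside the phosphatase family had a median difference of 0.06 over 18 genes, 13 of them higher, and of 0.09 without wild-type array 3. Separate groups were found in 5 higher and 1 lower, beside 7.59% and 12.2% of all genes. Spred2, which restrains Raf activation, read 0.67, 0.79 and 0.78 in knockout, against 0.46, 0.53 and 0.31 in wild type. The difference was 0.31 ± 0.08 (SE), or 0.25 without wild-type array 3. Sh2b3, an adaptor that dampens receptor signalling, differed by 0.28 ± 0.08 (SE). It differed by 0.15 on the shared slide, and by 0.20 when the probes of the gene were averaged. Il17rd, a membrane inhibitor of FGF signalling, differed by -0.37 ± 0.19 (SE), and by -0.16 without wild-type array 3. Over these 3 genes the adjusted p in limma ran from 0.292 to 0.470.

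Genes transcribed in response to ERK had the largest median of the 4 lists, 0.36 over 29 genes, 24 of them higher. Separate groups were found in 10 higher and 0 lower, beside 7.59% and 12.2% of all genes. By array the list stood at 0.42, 0.25 and 0.33 in knockout and at 0.02, 0.28 and -0.33 in wild type, relative to the wild-type mean, and wild-type array 2 lay above knockout 2. Without wild-type array 3 the median difference was 0.18, and on the shared slide it was 0.42. Fosl2, an AP-1 subunit, read 1.99, 2.05 and 2.06 in knockout, against 1.06, 1.54 and 0.91 in wild type. The difference was 0.86 ± 0.17 (SE, adjusted p = 0.234 in limma over all genes). It was 0.73 without wild-type array 3, and 0.675 when the probes of the gene were averaged. Fosb, another AP-1 subunit, differed by 0.84 ± 0.22 (SE), or by 0.73 without wild-type array 3. The nuclear receptor Nr4a1 differed by 0.72 ± 0.24 (SE), or by 0.48 without wild-type array 3. Plk2, an activity-induced kinase, differed by 0.21 ± 0.06 (SE). On the kinase list separate groups were found in 8 higher and 2 lower genes, beside 7.59% and 12.2% of all genes. The lower ones were Nras, at -0.23 ± 0.08, and Mapk13, a p38 isoform, at -0.37 ± 0.17 (SE). Without wild-type array 3 Nras differed by -0.16 and Mapk13 by -0.28. Mapk13 differed by -0.13 on the shared slide and Nr4a1 by 0.85.

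**Figure D4:**
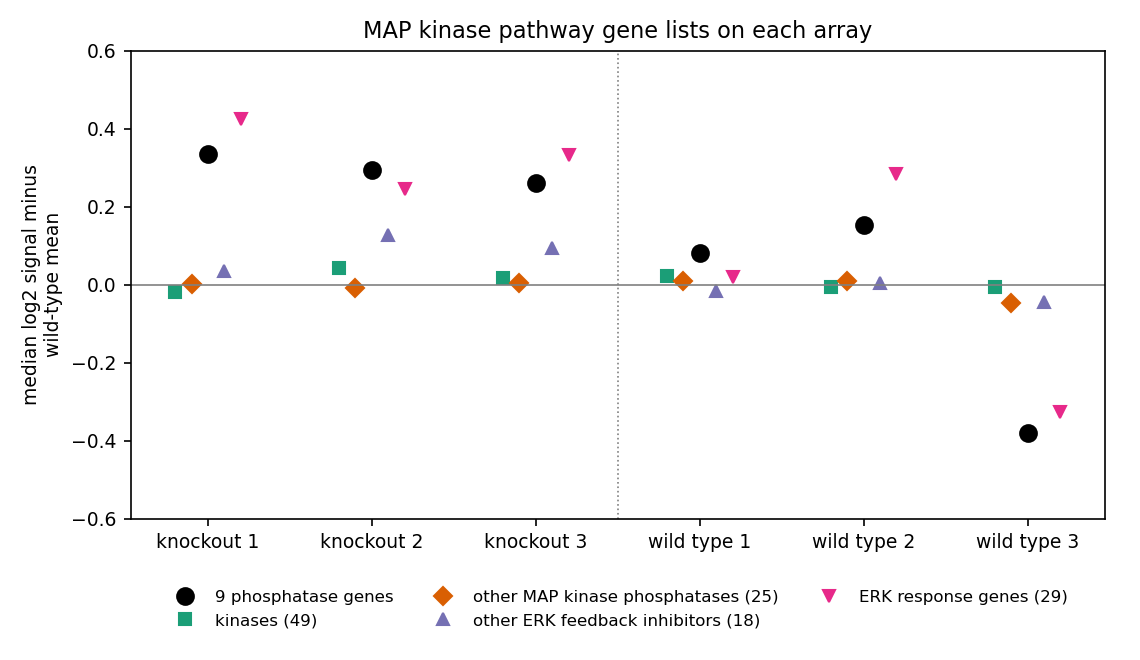
Median log2 signal relative to the wild-type mean on each array, for the 9 phosphatase genes (black circles) and for the 4 lists of MAP kinase pathway genes, with the number of genes that have a value on every array in brackets. The kinases and the other phosphatases stay within 0.05 of 0 on all arrays, whereas the ERK response genes stand between 0.25 and 0.42 in knockout and at 0.02, 0.28 and -0.33 on wild-type arrays 1, 2 and 3, so that wild-type array 2 lies inside the knockout range.

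The genes closest to Dusp4 and Dusp5, the members with the largest differences, were found by the root mean square difference between centred log2 values over the 6 arrays, among 17592 named genes. Closest to Dusp4 were Tnnt2, a troponin, at 0.08, Dock4, an exchange factor for small GTPases, at 0.10, AA467197 at 0.12, the protocadherin Pcdhb13 at 0.14 and the olfactory receptor Olfr316 at 0.14, where the values of Dusp4 themselves deviated by 0.37 from their mean. Closest to Dusp5 were Amn at 0.10, Sgpp2, a sphingosine-1-phosphate phosphatase, at 0.16, the transcription factor Nfix at 0.17, Plin4, a lipid droplet protein, at 0.17 and Plxdc1 at 0.18, where Dusp5 deviated by 0.48. None of the other phosphatase genes was among these.

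Within the 9 genes, the closest pairs by the same measure were Dusp7 with Dusp10 at 0.10, Dusp2 with Dusp7 at 0.11 and Dusp1 with Dusp6 at 0.11. Dusp5 was at 0.27 or more from each of the others and Dusp4 at 0.25 or more, and these 2 were the farthest pair, at 0.49.

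Sequence upstream of the start sites was set beside these values for the 8 genes with an entry in RefSeq's GRCm38.p6 promoter table, all but Dusp4. The windows ran from 250 bases before to 50 bases after the start and were searched on both strands for the cAMP response element TGACGTCA, the AP-1 site TGANTCA, the TATA box core TATAAA and, by its name, the CArG box, the site of serum response factor. The cAMP response element was found in Dusp1 and Dusp8, where 1.79% of all 32851 promoter windows hold it. A CArG box was found in Dusp5, where 1.63% of all windows hold one, and an AP-1 site in 0 of the 8, against 7.81% of all windows. TATAAA was likewise in 0 of the 8, against 13.6% of all windows. The 250 bases before the start are shown for the 3 genes with a match, with the matches in capitals, for Dusp1 at chr17:26508473-26508722 on the minus strand, Dusp5 at chr19:53528895-53529144 on the plus strand and Dusp8 at chr7:142095285-142095534 on the minus strand:
Dusp1: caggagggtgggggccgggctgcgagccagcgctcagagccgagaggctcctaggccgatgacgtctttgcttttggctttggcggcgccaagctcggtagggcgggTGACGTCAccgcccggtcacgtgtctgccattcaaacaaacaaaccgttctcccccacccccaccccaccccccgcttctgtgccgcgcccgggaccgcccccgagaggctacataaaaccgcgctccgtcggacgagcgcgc
Dusp5: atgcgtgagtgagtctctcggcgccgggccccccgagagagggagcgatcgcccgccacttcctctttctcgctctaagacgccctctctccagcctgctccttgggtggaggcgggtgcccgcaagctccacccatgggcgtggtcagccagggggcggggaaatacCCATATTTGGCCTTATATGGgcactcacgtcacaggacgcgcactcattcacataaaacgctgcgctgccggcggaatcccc
Dusp8: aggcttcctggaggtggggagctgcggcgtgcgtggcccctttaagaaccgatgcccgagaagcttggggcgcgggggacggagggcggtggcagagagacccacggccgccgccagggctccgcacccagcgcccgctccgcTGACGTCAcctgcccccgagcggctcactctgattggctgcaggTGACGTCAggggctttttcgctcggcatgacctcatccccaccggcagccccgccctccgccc

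The match in Dusp1 starts at position -143 from the start in the promoter table, those in Dusp8 at -107 and -63, and the adjacent CArG boxes of Dusp5 at -82 and -72. For Dusp7, Dusp8 and Dusp16 that start lies inside the span of the gene in GRCm38.p6, not at its 5' end. Dusp1 and Dusp8, which both hold the cAMP response element, differed by 0.45 and 0.05 between knockout and wild type, and Dusp5, with the CArG boxes, by 0.48. The windows of Dusp2, Dusp6, Dusp7, Dusp10 and Dusp16 held none of the 4 motifs, and these genes differed by 0.30, 0.38, 0.20, 0.17 and 0.10. Whether the motifs go with the differences was not tested.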

How the data were processed

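Total RNA from 6 brain samples, labelled with Cy3, was hybridised to Agilent arrays (design 026655). The deposited intensity of each spot was extracted with Agilent Feature Extraction 12.1.1.1, which detrended the processed signal and gave very dim spots a surrogate value, per the file headers. The mean and local background intensities were deposited uncorrected.

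Groups and replicate numbers came from the titles and slides from the file headers. Control spots and spots marked as outliers were left out. The outliers numbered 68 to 98 per array on the slide of both genotypes, and 314 and 530 on knockout 2 and 3. Then log2 of the processed signal was taken, spots of a probe were averaged, and each array's 75th percentile was subtracted. A probe entered the fit if it was detected well above background throughout 1 or both genotypes and had 2 or more values in each, and 2030 probes without a gene name were not tested. Names came from RefSeq accessions for 29510 probes. The brightest probe stood for a gene. Knockout and wild type were compared with limma 3.58.1 in R 4.3.3, two-sided, with Benjamini-Hochberg adjustment over 22565 genes at a threshold of 0.05, and the fit was tested on simulated data. An exact test of 3 against 3 samples cannot go below 0.1 and was not used.

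The 9 genes and all lists were chosen with earlier results of these data known. Besides the 9 genes, the text names, over the 4 pathway lists, up to 6 genes per direction with the smallest unadjusted p among those with separate groups (4 were lower), and the 5 genes closest to each of the 2 members that differed most. Alternatives covered background correction, scaling, filter, probe choice, flags, slide, pairing and each array left out.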

Additional observations from a re-analysis of the deposited data

How the results depend on the processing

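The number of arrays limits the precision. Over the 17 alternatives the median of the 9 phosphatase genes ran from 0.12 without wild-type array 3 to 0.45 after median scaling, which moved the median of all genes to 0.13, and all 9 means stayed higher in knockout under 16 of them. Leaving out each array in turn gave a median of 0.12 to 0.34. Without wild-type array 3 the exceptions were Dusp10 at -0.02 and Dusp16 at -0.13. After median scaling Dusp2 and Dusp8 differed by 0.45 and 0.19, the only members moved by more than their wild-type SD, and Styx turned to 0.079. These 2 members have the smallest wild-type SDs of the 9 genes. Against the smaller knockout SD other members moved further too, such as Dusp6 without wild-type array 3. Averaging the probes of a gene brought Dusp1 to 0.17, since its dimmer probe went the other way. With normexp (offset 50) the median of the 9 was 0.22, and Dusp5 differed by 0.19 in place of 0.48.

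The count of all genes past the threshold was 0 over all 6 arrays and 0 to 60 with each array left out. The 60 came from the fit lacking knockout 1, in which slide and genotype cannot be told apart, and none was on the pathway lists, where the count was 0 under all 17 alternatives. At an unadjusted p under 0.05 in limma, 75.2% of 2801 genes were lower in knockout, against 45% of 2469 after quantile normalization and 24.6% of 3942 after median scaling. With the slide as a fixed block there were 1257 such genes, and 976 on the slide of both genotypes. Same-numbered samples had correlated deviations of -0.02, -0.14 and -0.12, and no sample correlated best with its own number, so the numbers were not taken as pairs. With the replicate block 0 genes passed, the median of the 9 was 0.30 and 2401 genes had an unadjusted p under 0.05.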

Other observations

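The 9 phosphatase genes differed in how far the arrays of a group lay apart. In knockout the SD of Dusp5, Dusp16, Dusp1 and Dusp7 was above that of 87.4%, 69.4%, 66.9% and 51.2% of all genes tested, and that of Dusp10, Dusp2, Dusp6 and Dusp8 above 32.7%, 16.6%, 13.9% and 6.42%. In wild type the SD of Dusp5, Dusp1, Dusp16, Dusp6 and Dusp10 was above that of 96.8%, 91.9%, 90.9%, 89.8% and 85.5% of them, and that of Dusp7, Dusp2 and Dusp8 above 66.3%, 37.4% and 25.9%. Wild-type array 3 was the lowest of the 6 arrays in 7 of the 9 genes, all but Dusp4 and Dusp8. The wild-type SD therefore includes the distance of that array, and no SD was taken without it. Dusp4 lay near the middle in both groups, at 63.8% in knockout and 59.4% in wild type. Spreads of 3 arrays are imprecise, and these shares are given as a description.

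Dusp14, an atypical dual-specificity phosphatase chosen after its values were seen, was the gene of the other phosphatases whose groups were separate and higher. It averaged 2.62 ± 0.13 in knockout and 2.25 ± 0.24 in wild type (SD, n = 3 each), a difference of 0.37 ± 0.14 (SE), and 0.25 without wild-type array 3. The 4 Sprouty genes, feedback inhibitors of receptor signalling also chosen after their values were seen, did not differ in 1 direction. Spry4, Spry2 and Spry3 differed by 0.47 ± 0.21, 0.33 ± 0.14 and 0.20 ± 0.15 (SE) and Spry1 by -0.11 ± 0.11 (SE). Without wild-type array 3 these were 0.27, 0.18, 0.34 and -0.14.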
